A study of Mus musculus with 6 samples.

Results

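The genes described here are 39 named genes of the p53 response and of programmed cell death, read by array in tumours of the MMTV-PyMT+ mouse mammary cancer model. Of the 39, 36 had a probe set whose annotation names that gene alone, out of 19938 genes named on the array, and all 36 passed the filter on low values into the 14953 genes tested. Trp53 and Bax were not analysed here, and the probe set of Cdkn1a also names another gene and was left out. Where a gene had several probe sets, the one with the highest mean level was used. Among the 36, Birc2 had 2 and the others 1. The members were grouped by role: 2 regulators of p53, 12 p53 targets, 11 members of the BCL2 family, 2 death receptors and 9 caspases and their regulators.

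Each of the 6 arrays read 1 tumour, 3 of them grown under DPM (10 mg/kg, injected into the peritoneum) and 3 under vehicle. Both groups were MMTV-PyMT+ females on the FVB background, injected from 4 weeks of age for 11 weeks, 5 days on and 2 days off, and sampled at 15 weeks. The mouse mammary tumour virus promoter drives polyoma middle T antigen mainly in mammary epithelium, in both groups. DPM, not spelled out in the labels, is taken to be dipyridamole from knowledge of the study. Dipyridamole blocks nucleoside transport and phosphodiesterases. RNA came from solid tumour tissue without necrosis, so that necrotic areas are not represented. The arms held 10 and 7 mice, and the labels call the samples biological replicates without naming mouse or gland.

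The p53 protein is a transcription factor that is kept low by Mdm2 and Mdm4 and is stabilised when DNA is damaged or oncogenes signal. Its targets halt the cell cycle, aid repair or promote death. In the mitochondrial route to death, pro-survival BCL2 proteins hold the effectors Bax and Bak1 in check until BH3-only proteins displace them. Cytochrome c then joins Apaf1 to activate caspase-9. In the receptor route, Fas and Tnfrsf10b recruit caspase-8. Caspase-1, caspase-11 (gene Casp4) and caspase-12 form a separate, inflammatory branch. Much of p53 and caspase control acts on proteins, which arrays of RNA do not read.

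Values are log2 intensities after quantile normalisation, and differences are DPM minus vehicle. The deposited median intensities ran from 270 to 301 over the arrays, and the arrays numbered 3 had the highest upper quartiles (869 and 887, against 717 to 748). All 7 luminal epithelial markers passed the filter on low values, with summed levels of 32022 to 35691 in DPM and 30928 to 35907 in vehicle tumours. In bulk tumour RNA, fewer cells of a type and less RNA per cell cannot be told apart.

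No member passed the threshold of an adjusted p of 0.05 in limma, whose fit called 0 of 14953 genes (0%). The lowest adjusted p of any member was 1.0. At an unadjusted p under 0.05 there were 4 members, the p53 targets Gadd45b and Plk2 and the inflammatory caspase genes Casp1 and Casp12, all with the lower mean in DPM tumours. Over all genes tested 2.19% met this in that direction, 1.68% in the other and 3.87% in either. DPM and vehicle values did not overlap for 4 members, Gadd45b, Casp1, Casp12 and the BH3-only gene Pmaip1, again lower in DPM. Over all genes 3.48% were apart in that direction, 3.49% in the other and 6.97% in either.

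In total 22 of the 36 had the lower mean in DPM tumours, against 49.7% of all genes. The median difference over the 36 was -0.03 log2, and over all genes 0.00. The 95% interval lay within 0.5 log2 of 0 for 25 members, against 84.1% of all genes. The differences ran from -0.72 for Casp1 to 0.39 for Bmf.

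**Figure D1:**
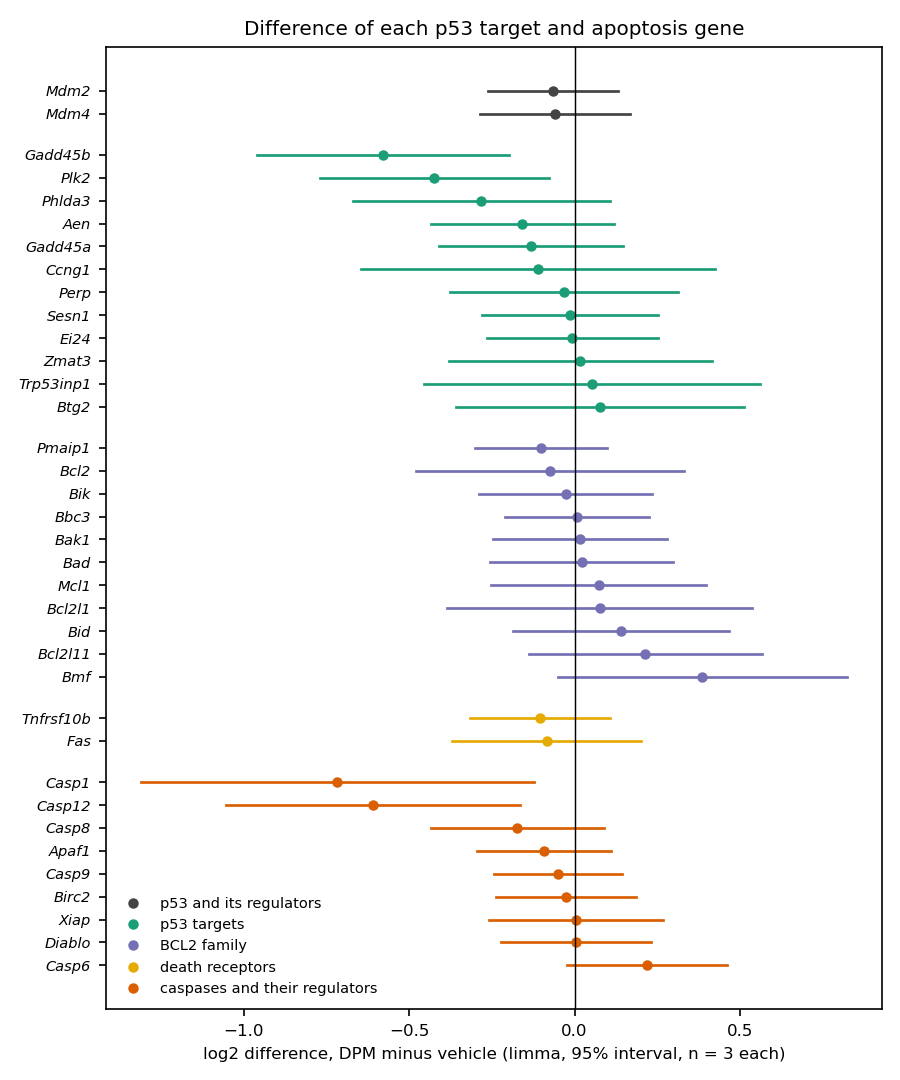
Each point is the log2 difference of a gene, DPM minus vehicle, and each line its unadjusted 95% interval from limma (n = 3 tumours per group). Genes are grouped and coloured by role. The intervals of Gadd45b, Plk2, Casp1 and Casp12 lie below 0 and the other 32 include 0.

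**Figure D2:**
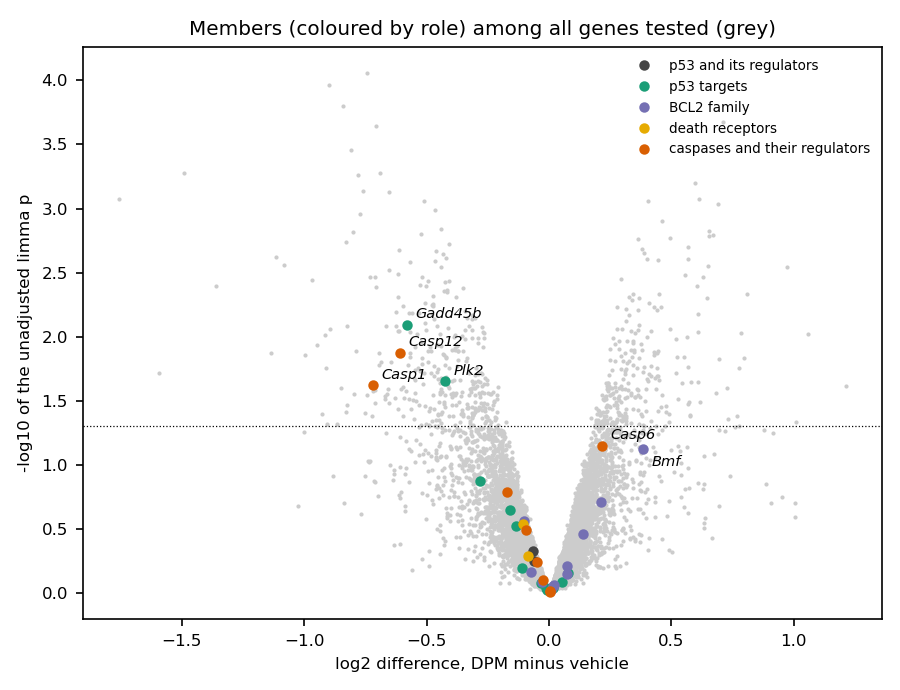
Each grey point is a gene tested, with its log2 difference on the x axis and -log10 of its unadjusted limma p on the y axis. Coloured points are the 36 members and the dotted line marks the unadjusted limma threshold. Gadd45b, Casp12, Casp1 and Plk2 lie above the line, among many grey genes of like size.

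The regulators of p53 had differences within their errors. Mdm2, the ubiquitin ligase that marks p53 for degradation and is itself a p53 target, had values of 9.67, 9.81 and 9.68 in the DPM tumours and 9.73, 9.82 and 9.81 in the vehicle tumours, in replicate order. The groups overlapped. The difference was -0.06 (SE 0.08, 95% interval -0.26 to 0.13, n = 3 each, limma adjusted p = 1.0). Mdm4, a relative of Mdm2 that masks the activation domain of p53, had values of 9.95, 9.87 and 9.79 in DPM and 9.85, 10.08 and 9.86 in vehicle tumours. Its difference was -0.06 (SE 0.10), and vehicle replicate 2 was the highest of the 6 for both genes.

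Of the 12 p53 targets measured outside the BCL2 family and death receptors, 9 had the lower and 3 the higher mean in DPM tumours, with a median difference of -0.07 log2. None was called. This median depended on which tumours entered it. It was -0.12 without DPM replicate 1, -0.20 without DPM replicate 2 and 0.0087 without DPM replicate 3. It was -0.039 without vehicle replicate 1 and -0.0039 without both tumours numbered 3. Counted with Mdm2, Bbc3, Pmaip1, Fas and Tnfrsf10b, 13 of 17 p53 targets had the lower mean, with a median of -0.08.

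Gadd45b, a stress sensor that acts on the p38 and JNK kinases and is also induced by NF-kB and TGF-beta, had values of 9.0, 8.62 and 8.60 in DPM and 9.06, 9.59 and 9.31 in vehicle tumours. The groups did not overlap, although DPM replicate 1 and vehicle replicate 1 were close. The mean was 8.74 ± 0.23 in DPM and 9.32 ± 0.27 in vehicle tumours (SD, n = 3 each), a difference of -0.58 (SE 0.16, interval -0.96 to -0.20, unadjusted p = 0.00804, limma adjusted p = 1.0). This was 0.670 times the vehicle level. Gadd45a, its relative and the more direct p53 target, differed by -0.13 (SE 0.12), with overlapping values.

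Plk2, a polo-like kinase induced by p53 and by growth factor and synaptic signals, had values of 9.08, 8.73 and 8.55 in DPM and 9.06, 9.36 and 9.21 in vehicle tumours. DPM replicate 1 lay just above vehicle replicate 1, and the groups overlapped there. The mean was 8.79 ± 0.27 and 9.21 ± 0.15, a difference of -0.42 (SE 0.15, interval -0.77 to -0.08, unadjusted p = 0.0223, limma adjusted p = 1.0). Leaving out 1 array gave -0.58 to -0.30, and the unadjusted p was 0.0611 without DPM replicate 2, 0.0740 without DPM replicate 3 and 0.0726 without vehicle replicate 2.

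Both genes were highest in vehicle replicate 2 and lowest in DPM replicate 3. Basal epithelial markers, with 7 of 7 measured and none at 0, had deviations from their 6-array mean of -0.04, -0.42 and -0.11 in DPM and 0.08, 0.36 and 0.13 in vehicle tumours. Their summed levels were 4618 to 6326 in DPM and 7137 to 8849 in vehicle tumours, and did not overlap. The deviation of the list was lowest in DPM replicate 2 and highest in vehicle replicate 2. Of its 7 markers, 2 were apart singly, both lower in DPM, beside 3.48% of all genes. Fibroblast (-0.88) and macrophage markers (-0.31) had their lowest deviations in DPM replicate 3. Their highest were in DPM replicate 1 for fibroblast and vehicle replicate 3 for macrophage markers. The part of these lists in the differences of Gadd45b and Plk2 was not tested.

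The promoters of both genes are shown because they are the p53 targets with the largest differences, next to those of Mdm2 and Ccng1, p53 targets whose differences were small. The windows are RefSeq's, GRCm38.p6, 250 bases before to 50 after the gene's start, 5′ to 3′ on the gene's strand. They come from the reference strain, not from FVB. Capitals mark matches on either strand to any of 6 motifs, overlaps included. These were the p53 decamer, the NF-kB consensus, ISRE (GAAA, any 2 bases, then GAAA), GAS (TTCNNNGAA), AP-1 (TGANTCA) and CRE (TGACGTCA). The p53 decamer is only a part of a full p53 response element.
Gadd45b, chr10:80929841-80930140, plus strand: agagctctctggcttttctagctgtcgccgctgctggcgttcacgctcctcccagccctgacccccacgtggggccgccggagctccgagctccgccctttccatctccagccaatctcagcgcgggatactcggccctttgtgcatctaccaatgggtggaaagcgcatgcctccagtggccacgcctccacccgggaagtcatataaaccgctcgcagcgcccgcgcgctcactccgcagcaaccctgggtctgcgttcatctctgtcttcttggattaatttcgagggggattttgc
Plk2, chr13:110394794-110395093, plus strand: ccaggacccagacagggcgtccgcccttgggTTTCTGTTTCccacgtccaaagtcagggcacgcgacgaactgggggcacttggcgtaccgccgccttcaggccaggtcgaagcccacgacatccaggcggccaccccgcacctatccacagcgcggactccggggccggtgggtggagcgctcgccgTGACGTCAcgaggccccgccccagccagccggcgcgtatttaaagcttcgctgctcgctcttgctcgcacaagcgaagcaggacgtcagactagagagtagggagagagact
Mdm2, chr10:117710709-117711008, minus strand: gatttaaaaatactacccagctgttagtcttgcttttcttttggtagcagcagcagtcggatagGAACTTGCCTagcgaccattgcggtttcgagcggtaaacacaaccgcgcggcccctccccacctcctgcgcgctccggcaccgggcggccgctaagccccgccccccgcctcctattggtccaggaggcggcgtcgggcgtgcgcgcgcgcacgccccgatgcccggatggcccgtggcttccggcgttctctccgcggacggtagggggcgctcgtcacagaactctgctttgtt
Ccng1, chr11:40755237-40755536, minus strand: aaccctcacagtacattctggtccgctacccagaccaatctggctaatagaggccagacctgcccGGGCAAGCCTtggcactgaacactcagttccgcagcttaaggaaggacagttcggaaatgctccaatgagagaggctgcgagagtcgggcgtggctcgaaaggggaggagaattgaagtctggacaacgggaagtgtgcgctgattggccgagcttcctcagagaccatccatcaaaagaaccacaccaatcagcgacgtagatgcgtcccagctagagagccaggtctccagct

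The Gadd45b window held none of the 6 motifs. The Plk2 window held a CRE, found in 2.03% of all genes with a window, and an ISRE, found in 3.99%. The capitals in the Mdm2 and Ccng1 windows are sequence matches to the p53 decamer, and binding of p53 there was not tested. Member windows on chromosome 18 were left out, while the count over all genes did not leave any out. Over the 30 members with a window then left, 8 held a p53 decamer, against 9.55% (2582) of all 27025 genes. They were 6 of the 12 p53 targets that had a window, here counted with Mdm2, Fas and Bbc3 (Aen, Ccng1, Ei24, Gadd45a, Mdm2 and Sesn1) and 2 of the 18 other members (Birc2 and Bmf). Genes differ in how many windows they have. The differences of those 6 p53 targets ran from -0.16 for Aen to -0.01 for Ei24. Among targets without this decamer in their windows, Gadd45b (-0.58) and Plk2 (-0.42) had the largest differences. Btg2 (0.08), Bbc3 (0.01) and Fas (-0.08) had small ones. Btg2 had a CRE, as Plk2 did. The part of the motifs in these differences was not tested. Mdm2 and Ccng1 were picked by hand from the targets with small differences.

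The other p53 targets had differences within 0.3 log2, and their values overlapped between the groups. Phlda3, which restrains AKT at the membrane, was at 9.32, 9.40 and 8.90 in DPM and 9.38, 9.32 and 9.76 in vehicle tumours. The difference was -0.28 (SE 0.17). Aen, a nuclease that acts in apoptosis, differed by -0.16 (SE 0.12). Ccng1, cyclin G1, ranged from 11.65 to 12.47 over the 6 tumours and differed by -0.11 (SE 0.23). Its values spread more between tumours of a group than between groups.

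Perp, a desmosome and death effector, differed by -0.03 (SE 0.15), and Sesn1, a sestrin that restrains mTORC1, by -0.01 (SE 0.11). Ei24, a membrane protein of the endoplasmic reticulum, differed by -0.01 (SE 0.11). The 3 targets with the higher mean in DPM were Btg2, an antiproliferative cofactor (0.08, SE 0.19), Trp53inp1, which promotes p53 activity and autophagy (0.05, SE 0.22), and Zmat3, an RNA-binding protein (0.02, SE 0.17). These 6 differences were each smaller than their SE.

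Values of the p53 targets in single tumours were uneven. DPM replicate 3 was the lowest of the 6 tumours for 10 of the 12 targets, a place it took for 20.2% of all genes tested. Exceptions were Ei24, which was highest there, and Btg2, lowest in vehicle replicate 2 (9.70). The median deviation of the 12 from their 6-array means was -0.28 log2 in DPM replicate 3, 0.01 and 0.10 in DPM replicates 1 and 2, and 0.08, -0.07 and 0.13 in vehicle replicates 1 to 3. Trp53inp1 spanned the widest range among the DPM tumours, from 10.30 in replicate 3 to 11.18 in replicate 2. Fibroblast markers, with 8 of 8 measured, were also lowest in DPM replicate 3, with a deviation of -0.88 there against -0.02 to 0.37 in the other 5. The part of that tumour's makeup in the p53 targets was not tested.

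**Figure D3:**
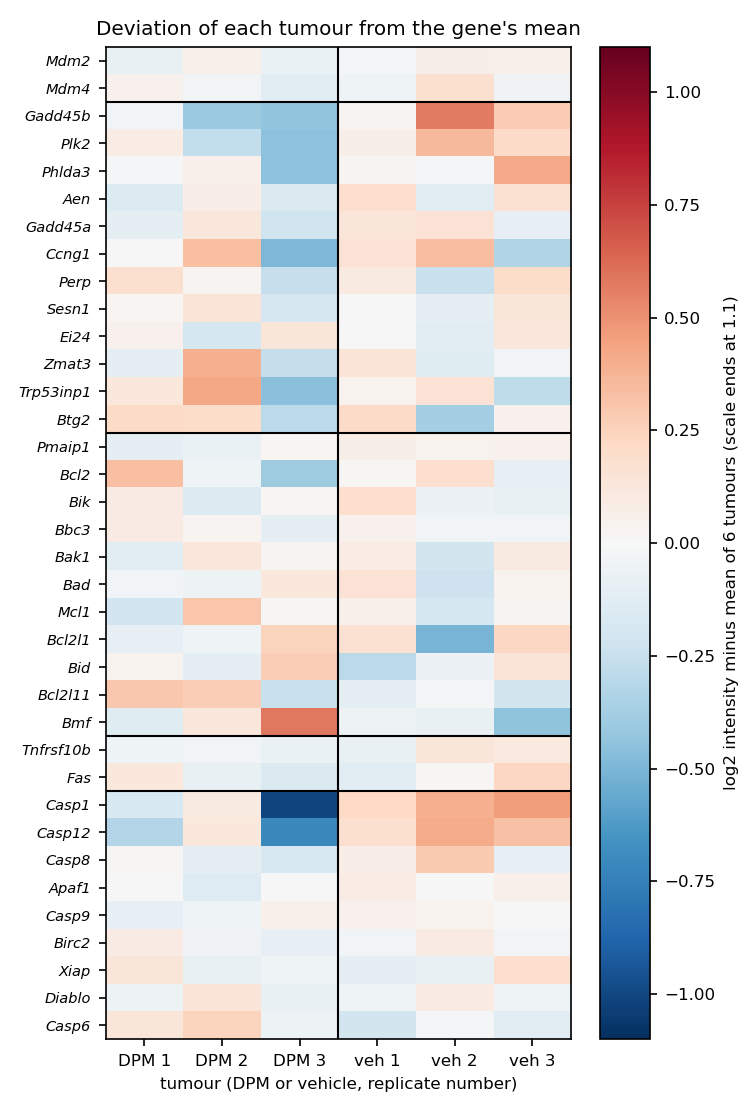
Rows are the 36 members by role and columns the 6 tumours, with colour for the log2 intensity minus the gene's mean over the 6. Lines separate the roles and the treatment groups. DPM 3 is blue for most p53 targets and darkest for Casp1 and Casp12, while the BCL2 family shows no shared colour.

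The BCL2 family had 8 members with the higher and 3 with the lower mean in DPM tumours, and a median difference of 0.02 log2. None was called. Bcl2, the founding pro-survival member, was at 11.49, 11.11 and 10.76 in DPM and 11.17, 11.34 and 11.06 in vehicle tumours. The DPM values enclosed those of vehicle, and the difference was -0.07 (SE 0.18, interval -0.48 to 0.33, n = 3 each). The other pro-survival genes were Bcl2l1, which encodes BCL-XL (0.08, SE 0.20), and Mcl1 (0.07, SE 0.14). Bcl2l1 was lowest in vehicle replicate 2, at 9.68, against 10.10 to 10.43 in the other 5 tumours. Bak1, the effector measured, differed by 0.02 (SE 0.11, interval -0.25 to 0.28).

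Among the BH3-only genes, Bmf and Bcl2l11 had the smallest p-values of the family. Bmf, whose protein binds dynein light chain and is linked to loss of attachment in mammary acini, was at 10.07, 10.33 and 10.79 in DPM and 10.15, 10.12 and 9.76 in vehicle tumours. DPM replicate 1 lay among the vehicle values. The difference was 0.39 (SE 0.19, interval -0.05 to 0.82, unadjusted p = 0.0755, limma adjusted p = 1.0). Without both tumours numbered 3 it was 0.07, without DPM replicate 3 it was 0.19, and without DPM replicate 1 it was 0.55.

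Bcl2l11, which encodes BIM, a binder of every pro-survival member, was at 10.37, 10.34 and 9.82 in DPM and 9.97, 10.06 and 9.87 in vehicle tumours. DPM replicates 1 and 2 were the highest of the 6 and DPM replicate 3 the lowest. The difference was 0.21 (SE 0.15, unadjusted p = 0.196, limma adjusted p = 1.0). Without DPM replicate 3 it was 0.39 (unadjusted p = 0.00600, limma adjusted p = 1.0). In DPM replicate 3, then, Bmf had its highest value and Bcl2l11 its lowest.

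Pmaip1, which encodes NOXA, was at 7.68, 7.71 and 7.79 in DPM and 7.84, 7.81 and 7.83 in vehicle tumours. The groups did not overlap, but they came within 0.02 log2 of each other. The difference was -0.10 (SE 0.09, interval -0.30 to 0.10, unadjusted p = 0.274). Bbc3, which encodes PUMA, the other strongly p53-dependent BH3-only gene, differed by 0.01 (SE 0.09). Bid, which carries the signal of caspase-8 to mitochondria, differed by 0.14 (SE 0.14), Bad by 0.02 (SE 0.12) and Bik by -0.03 (SE 0.11).

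Both death receptors had overlapping values. Fas was at 7.65, 7.46 and 7.38 in DPM and 7.43, 7.56 and 7.77 in vehicle tumours. The difference was -0.08 (SE 0.12, interval -0.37 to 0.20). Tnfrsf10b, the mouse TRAIL receptor, was at 9.39, 9.41 and 9.37 in DPM and 9.36, 9.58 and 9.55 in vehicle tumours. Its 3 DPM values lay within 0.04 log2 of each other, inside the range of the vehicle values. The difference was -0.10 (SE 0.09, interval -0.32 to 0.11).

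**Figure D4:**
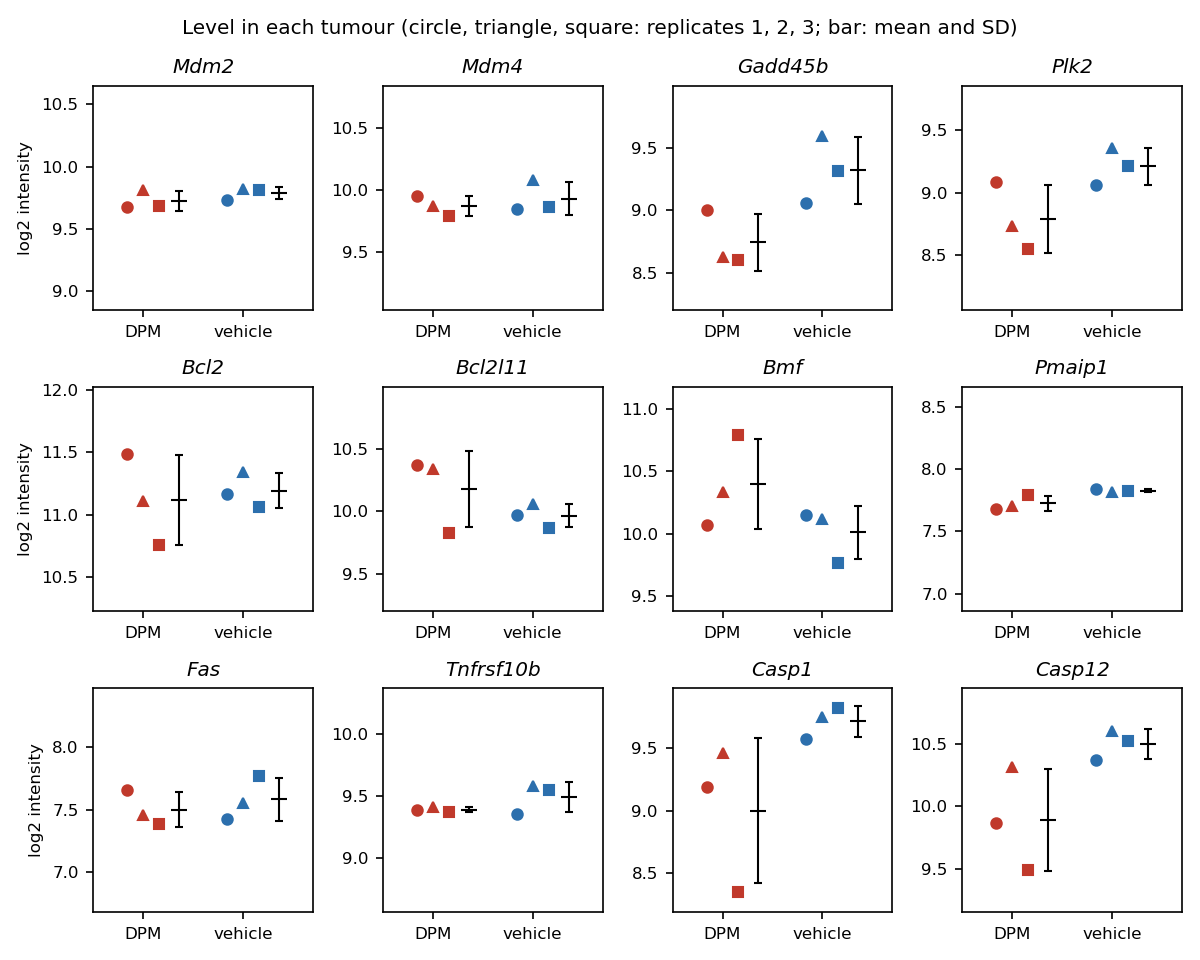
Each panel shows the log2 intensity of a gene in each tumour, with circles, triangles and squares for replicates 1, 2 and 3, and bars for the mean and SD of each group (n = 3). Every panel spans 1.8 log2 units. Gadd45b, Casp1, Casp12 and, narrowly, Pmaip1 are apart between the groups, and Mdm2, Mdm4, Fas and Tnfrsf10b are not.

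Of the 9 caspase genes and regulators, 6 had the lower and 3 the higher mean in DPM tumours, with a median difference of -0.05 log2. The 2 inflammatory members stood at one end. Casp1, which encodes the protease that matures IL-1 beta and IL-18, was at 9.19, 9.46 and 8.35 in DPM and 9.57, 9.75 and 9.82 in vehicle tumours. The groups did not overlap, and DPM replicate 3 was far below the other 5. The mean was 9.0 ± 0.58 in DPM and 9.72 ± 0.13 in vehicle tumours. The difference was -0.72 (SE 0.26, interval -1.31 to -0.12, n = 3 each, unadjusted p = 0.0238, limma adjusted p = 1.0). This was 0.608 times the vehicle level. Without DPM replicate 3 the difference was -0.39, with an unadjusted p of 0.0182. The unadjusted p was 0.0576 without vehicle replicate 2, 0.0636 without vehicle replicate 3 and 0.0561 without both tumours numbered 3.

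Casp12, an inflammatory caspase also linked to stress of the endoplasmic reticulum, was at 9.87, 10.31 and 9.49 in DPM and 10.37, 10.61 and 10.52 in vehicle tumours. The groups did not overlap, and DPM replicate 2 came within 0.06 log2 of vehicle replicate 1. The mean was 9.89 ± 0.41 and 10.50 ± 0.12, a difference of -0.61 (SE 0.19, interval -1.052 to -0.166, unadjusted p = 0.0133, limma adjusted p = 1.0). Without DPM replicate 3 it was -0.41 (unadjusted p = 0.0296), and without both tumours numbered 3 it was -0.39 (unadjusted p = 0.0713). For Casp1 and Casp12 the spread was wider among the DPM than among the vehicle tumours.

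Casp4, which encodes caspase-11, the sensor of intracellular lipopolysaccharide, is no member but belongs to the list of other apoptosis genes. It was at 8.88, 8.66 and 8.26 in DPM and 9.07, 9.0 and 9.15 in vehicle tumours. Again the groups did not overlap and DPM replicate 3 was lowest. The difference was -0.47 (SE 0.16, interval -0.83 to -0.11, unadjusted p = 0.0169, limma adjusted p = 1.0). In RefSeq's order of protein-coding genes Casp1, Casp4 and Casp12 follow each other on chromosome 9, and they are related in sequence.

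Marker lists also differed between the tumours. Interferon-stimulated genes, 10 of 12 measured, had deviations of 0.16, -0.82 and -0.34 in DPM and 0.42, 0.16 and 0.43 in vehicle tumours. All 10 had the lower mean in DPM, with a median difference of -0.75 log2. Of them 8 had an unadjusted limma p under 0.05, beside 2.19% of all genes in that direction. Values of 4 were apart, beside 3.48% of all genes. Their summed level was 4949 to 10869 in DPM and 10773 to 13380 in vehicle tumours, and they were lowest in DPM replicate 2. Among the DPM tumours Casp1 and Casp12 were highest in replicate 2 and Casp4 in replicate 1. Macrophage markers, 8 of 8 measured, had deviations of 0.21, -0.19 and -0.31 in DPM and -0.01, 0.04 and 0.26 in vehicle tumours, with summed levels of 9799 to 12691 and 11616 to 14091. Fibroblast markers had summed levels of 7666 to 16412 in DPM and 14886 to 16104 in vehicle tumours. All 8 macrophage and all 8 fibroblast markers had the lower mean in DPM, with median differences of -0.19 and -0.35 log2. No marker of these lists was at 0, and their part in the caspase differences was not tested.

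**Figure D5:**
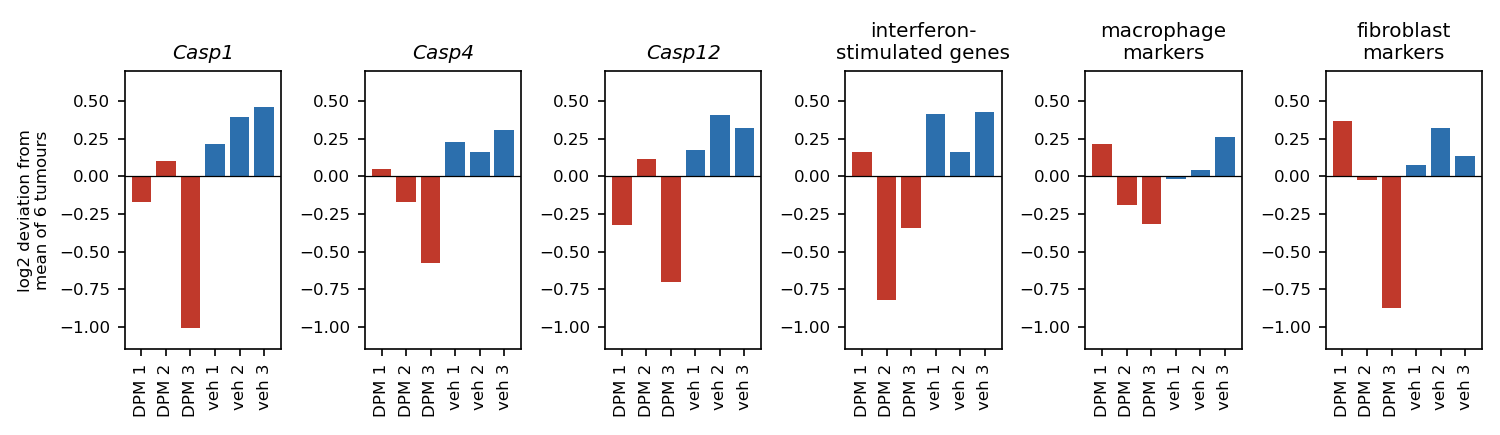
Bars show, for each tumour, the log2 level of Casp1, Casp4 and Casp12 minus the gene's 6-tumour mean, and the mean of the same deviation over interferon-stimulated genes, macrophage markers and fibroblast markers. DPM tumours are red and vehicle tumours blue. DPM 3 has the lowest bar for the 3 caspase genes and for macrophage and fibroblast markers, and DPM 2 for interferon-stimulated genes.

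The promoters of the 3 inflammatory caspase genes are shown because these neighbours had lower values together. Windows, build and capitals are as above.
Casp1, chr9:5298267-5298566, plus strand: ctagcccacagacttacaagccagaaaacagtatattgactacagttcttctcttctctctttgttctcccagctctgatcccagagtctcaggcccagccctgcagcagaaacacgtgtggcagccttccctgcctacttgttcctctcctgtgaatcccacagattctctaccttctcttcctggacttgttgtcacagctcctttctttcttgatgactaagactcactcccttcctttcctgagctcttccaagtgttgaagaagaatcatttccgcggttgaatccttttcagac
Casp4, chr9:5308599-5308898, plus strand: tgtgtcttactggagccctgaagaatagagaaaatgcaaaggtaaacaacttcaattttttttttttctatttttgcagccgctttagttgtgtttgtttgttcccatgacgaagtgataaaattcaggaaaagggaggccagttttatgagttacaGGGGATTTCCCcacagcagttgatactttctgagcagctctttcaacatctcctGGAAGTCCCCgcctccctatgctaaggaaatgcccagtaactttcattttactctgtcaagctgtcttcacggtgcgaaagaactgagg
Casp12, chr9:5345226-5345525, plus strand: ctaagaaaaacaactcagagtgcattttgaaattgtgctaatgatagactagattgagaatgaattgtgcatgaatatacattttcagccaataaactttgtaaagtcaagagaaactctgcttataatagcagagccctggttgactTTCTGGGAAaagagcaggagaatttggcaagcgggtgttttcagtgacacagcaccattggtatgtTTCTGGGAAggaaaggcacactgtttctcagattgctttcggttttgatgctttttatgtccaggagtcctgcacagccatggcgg

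The 3 windows differed in the motifs they held. The capitals in the Casp4 window are NF-kB consensus matches, a motif found in 2581 genes (9.55%). Those in the Casp12 window are 2 identical GAS matches (TTCTGGGAA), a motif found in 2582 genes (9.55%). The Casp1 window held none of the 6. No motif was shared by the 3 windows. A second Casp4 window (chr9:5308610-5308909), not printed, overlaps the first and held the same NF-kB consensus matches.

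The caspases of the death pathways had smaller differences. Casp8, the initiator of the receptor route, was at 10.93, 10.82 and 10.75 in DPM and 10.99, 11.21 and 10.83 in vehicle tumours. The difference was -0.17 (SE 0.11). Casp9, the initiator of the mitochondrial route, differed by -0.05 (SE 0.08) and its platform Apaf1 by -0.09 (SE 0.09). Casp6, an executioner that cleaves lamins, was at 10.29, 10.40 and 10.10 in DPM and 9.96, 10.14 and 10.04 in vehicle tumours. Its difference of 0.22 (SE 0.10, interval -0.02 to 0.46, unadjusted p = 0.0709) was the highest of the 9.

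The inhibitors of apoptosis Xiap (0.00, SE 0.11) and Birc2 (-0.03, SE 0.09) and their antagonist Diablo (0.00, SE 0.10), which is released from mitochondria, were level within their errors. The 2 probe sets of Birc2 differed in sign, at -0.03 and 0.03. The interval of Xiap ran from -0.26 to 0.27 and that of Diablo from -0.22 to 0.23.

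Other genes of the pathways, from lists that the members do not enter, showed no shared direction. Of 38 other p53 targets, 36 were tested, 20 with the higher and 16 with the lower mean in DPM, with a median of 0.02. None was called or reached an unadjusted p under 0.05. Of 42 other apoptosis genes, 32 were tested, 16 in each direction, with a median of 0.00. None was called, and Casp4 alone had an unadjusted p under 0.05. Casp2 differed by -0.06, the caspase-8 inhibitor gene Cflar by 0.06, the adaptor gene Fadd by 0.01 and the pro-survival gene Bcl2l2 by 0.09, genes named after their values were seen, to show adaptors and inhibitors of both routes.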

How the data were processed

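RNA of 6 tumours was labelled with biotin from 100 ng and read on 1-colour Affymetrix arrays, per the labels' protocols. The deposited table holds linear intensities for 35556 probe sets, as whole numbers with no detection calls. The authors' background correction, probe summary and scaling are not given in the sources used here. Values under 1 were set to 1 before log2, and the arrays were then quantile-normalised. GEO's platform annotation named 1 gene for 21789 probe sets, several for 1621 (left out) and none for 12146, and 21698 symbols were updated by Entrez identifier. Genes whose mean was under the 25th percentile were left out. The test of DPM against vehicle was that of limma 3.58.1, run in R 4.3.3 (eBayes with trend, two-sided, Benjamini-Hochberg over 14953 genes). The fit was checked on simulated data with planted changes larger than any member's difference, so smaller changes were not checked. The number of arrays limits the precision.

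The members and lists were chosen with earlier results of these data known. Values in every tumour are given for Mdm2, Bcl2 and Fas, for members at an unadjusted p under 0.05 or apart between groups, and for the 2 smallest p-values per role. Phlda3, Casp8 and Casp6 were given so after their values were seen. The labels name no batch, and numbers were not taken to pair the tumours. Same-numbered tumours had deviations that correlated at -0.12, 0.11 and 0.37, and differently numbered ones at -0.32 to 0.22. The tumours numbered 3 had the highest correlation, and fits with a replicate block and without both of them are given below.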

Additional observations from a re-analysis of the deposited data

How the results depend on the processing

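No member was called by limma under any of the 17 alternatives, and the lowest adjusted p that any member reached was 0.526, for Plk2 without DPM replicate 1. Of the 36 differences, 16 kept their sign in every alternative that tested them, among them Gadd45b (-0.72 to -0.45), Plk2 (-0.58 to -0.30), Casp1 (-0.95 to -0.33) and Casp12 (-0.82 to -0.39). The count of members at an unadjusted p under 0.05 was 2 to 5 with 1 array left out, beside 2.85% to 5.04% of all genes. It was lowest without vehicle replicate 2, where 4.59% of all genes met it. It was 1 (Bcl2l11) without both tumours numbered 3, beside 2.11% of all genes, a fit in which Gadd45b had an unadjusted p of 0.0605. Members apart between the groups numbered 7 with median centring, beside 5.19% of all genes, and 6 to 9 with 1 array left out, where 13.7% to 17.9% of all genes were apart because fewer arrays were compared. Without both tumours numbered 3 they numbered 11, beside 22.0% of all genes. The BCL2 family median was 0.073 with the filter at the 50th percentile, which tested fewer members, and -0.0070 to 0.085 with 1 array left out. The median of the caspases and their regulators was -0.10 without both tumours numbered 3.

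Signs of small differences changed, and the cause was not tested. Without both tumours numbered 3 the differences were 0.13 for Sesn1, 0.18 for Perp, 0.011 for Phlda3, 0.042 for Bcl2, -0.0044 for Bad and 0.064 for Fas. With array weights they were 0.0099 for Sesn1, -0.055 for Bcl2l1, -0.0052 for Bak1 and -0.061 for Bad. Without between-array normalisation they were -0.0054 for Bbc3 and -0.012 for Xiap. Ei24 was at 0.0022 with median centring, and Birc2 at 0.0042 as the mean of its probe sets. With 1 array left out, 19 members changed sign in at least 1 case. Among them Mdm4 ran from -0.10 to 0.016, Ccng1 from -0.30 to 0.11, Trp53inp1 from -0.14 to 0.30, Btg2 from -0.091 to 0.24, Sesn1 from -0.086 to 0.074, Zmat3 from -0.17 to 0.15, Ei24 from -0.077 to 0.087 and Perp from -0.16 to 0.083. In the BCL2 family Bcl2 ran from -0.26 to 0.10, Bcl2l1 from -0.16 to 0.21, Mcl1 from -0.061 to 0.20, Bak1 from -0.079 to 0.085, Bbc3 from -0.035 to 0.061, Bad from -0.090 to 0.10 and Bik from -0.082 to 0.060. Fas ran from -0.16 to 0.0077, Xiap from -0.062 to 0.096, Birc2 from -0.077 to 0.015 and Diablo from -0.068 to 0.049. With the replicate number as a replicate block, 0 members were called and 4 had an unadjusted p under 0.05, as without it, beside 4.84% of all genes against 3.87%. No detection calls were used, so dim genes such as Fas, Bbc3 and Pmaip1 may sit near background.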

Other observations

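The inflammatory caspase genes lie in a stretch of chromosome 9 whose next genes were read after the values of Casp1, Casp4 and Casp12 had been seen. In RefSeq's GRCm38.p6 order of protein-coding genes, Casp12 is followed by Pdgfd, a platelet-derived growth factor gene, and Ddi1. Pdgfd was at 7.61, 7.65 and 7.73 in DPM and 8.13, 8.02 and 8.05 in vehicle tumours. The difference was -0.41 (SE 0.09, unadjusted p = 0.00188, limma adjusted p = 0.904). Ddi1, under the filter on low values and not tested, was at 6.39, 6.34 and 6.28 in DPM and 6.57, 6.63 and 6.58 in vehicle tumours. Neither Pdgfd nor Ddi1 had overlapping values, and both were lower in DPM. The 3 caspase genes prompted the look, so the stretch has no share of all genes to be read against. Values overlapped for the gene before them, Gria4 (-0.19), which was under the filter, and for Msantd4. Further before, they overlapped for Kbtbd3 (0.02, under the filter), Aasdhppt (-0.03) and Gucy1a2 (-0.19). Msantd4 differed by -0.22 (SE 0.10, interval -0.46 to 0.01), and overlapped only where DPM replicate 1 and vehicle replicate 1 were both at 8.93. Values overlapped too for the genes that follow, Dync2h1 (0.07), Dcun1d5 (-0.01) and the collagenase gene Mmp13. Mmp13 differed by -0.91 (SE 0.30, interval -1.61 to -0.21), more than Casp1 (-0.72). Its DPM replicate 3 (9.17) lay above vehicle replicate 1 (8.99). Overlap alone thus gives the stretch of lower values no clear edge. Pdgfd did not share the low value of DPM replicate 3 that Casp1, Casp4 and Casp12 had. No cause was tested.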
